A study of Mus musculus with 6 samples.

Results

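The 26S proteasome and its assembly factors were followed here in 37 genes of 55487 in the deposited table, chosen by name from the subunits and assembly factors of the complex, with its catalytic and interferon-induced subunits left out. Every one of the 37 had a row in the table and passed the filter on low counts. RNA was sequenced from untreated 4T-1 cells, an established line from a mouse mammary tumour. Of 6 libraries, 3 came from wild-type cells (short name NC) and 3 from Lyplal1 knockout cells (short name sg2). The Lyplal1 protein belongs to the acyl-protein thioesterases, which take fatty acids off proteins, and the comparison asks how transcript levels differ between the genotypes. The labels do not say whether the knockout cells are 1 clone or a pool, nor whether the libraries of a genotype came from separate cultures, so p-values measure the spread between these libraries, which may be technical.

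The 26S proteasome is the cell's main machine for degrading proteins tagged with ubiquitin. It joins a barrel-shaped core, built of stacked rings of alpha and beta subunits with the proteolytic sites inside, to a regulatory cap. The cap has a base, whose ATPases unfold the substrate and thread it into the core, and a lid that removes the ubiquitin chain. Dedicated chaperones put the rings together, and cells are known to raise the genes of most subunits in concert when proteasome capacity falls short.

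Total counts were 16731209 to 17108975 per library. Across all 13022 tested genes, 41.3% were called higher and 40.9% lower in knockout (82.3% in either direction; quasi-likelihood test of edgeR, adjusted p under 0.05), so a call by itself sets a gene little apart, and sizes and shares are read against this background. All 6 listed markers of mammary carcinoma epithelium were detected, with a summed level of 3510 to 3610 counts scaled to library size (CPM) in wild-type libraries and 2970 CPM in knockout ones. Within that sum Krt18 had 22846 to 23858 counts in wild type and 7606 to 7883 in knockout, Epcam 1568 to 1626 and 455 to 498, and Krt8 6941 to 7076 and 3980 to 4267, whereas Krt7 had 13961 to 14691 and 21511 to 21676. Lyplal1 itself had 76, 73 and 68 counts in wild type and 54, 48 and 58 in knockout, a difference that was not called although the groups did not overlap (log2 fold change -0.28 ± 0.15 (SE), edgeR adjusted p = 0.0886). The 4 lung epithelium markers summed to 0.112 to 0.223 CPM in wild-type libraries and 37.6 to 145 CPM in knockout, highest in knockout replicate 3. The 4 endothelial markers summed to 0.168 to 0.223 CPM and 1.06 to 6.48 CPM, and the 5 fibroblast markers to 67.2 to 69.9 CPM and 165 to 179 CPM. Nearly all of the latter was Pdgfra (1187, 1137 and 1135 counts in wild-type libraries, 2849, 2722 and 2559 in knockout ones), while Col1a1 had 65, 60 and 71 counts against 15, 14 and 37. The 7 leukocyte markers summed to 8.41 to 8.76 CPM and 443 to 500 CPM, nearly all of it Cd68, while the defining marker Ptprc had 1 to 4 counts per knockout library. The part of these other transcripts in the results was not tested. Without knockout replicate 3, 35 of the 37 proteasome genes were called higher and 1 lower, as with it, beside 40.5% of all tested genes called higher. Leaving out that library does not remove these transcripts. The lung marker Sftpb had 300 and 297 counts in knockout replicates 1 and 2 and 1 count in each wild-type library.

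Nearly the whole complex was more abundant as RNA in knockout cells, by a moderate and uneven amount. Of the 37 genes 35 rose, which is 94.6% against the 41.3% of all tested genes called higher, 1 fell and 1 was not called. The fall was that of Psme4, and the gene not called was Psmd12. The median log2 fold change was 0.67, a 1.59-fold rise, where the median over all tested genes was -0.0012. All 3 knockout libraries lay above all 3 wild-type libraries in 35 of the 37 genes, and 41.7% of all tested genes did so. A fitted rise of more than 1.5-fold was seen in 21 of the 37 genes (23.5% of all tested genes), and one of more than 2-fold in 9 (12.4%). Tested against a 1.2-fold change, 31 were called higher and 0 lower, beside 32.3% and 32.0% of all tested genes. In bulk RNA, fewer cells of a kind and less RNA per cell cannot be told apart.

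**Figure D1:**
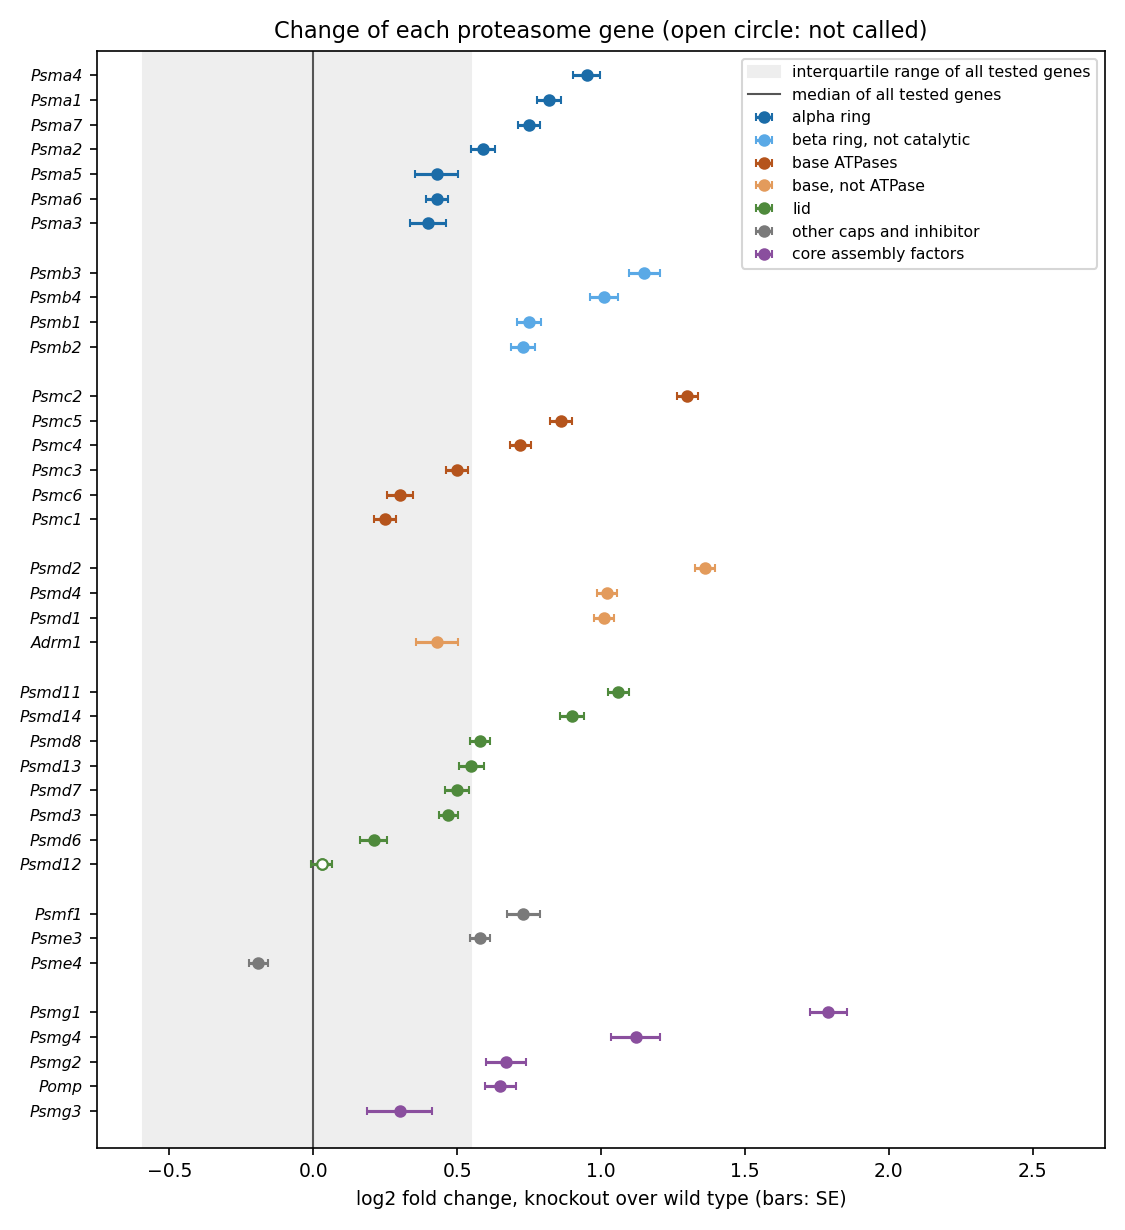
Fitted log2 fold change of each of the 37 genes, knockout over wild type, with its SE, grouped by place in the complex. The grey band runs from -0.59 to 0.55, the lower and upper quartiles of all tested genes. The points run from -0.19 (Psme4) to 1.79 (Psmg1), and Psmd12 (open circle) sits at 0.03.

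All 7 genes of the alpha ring, which closes both ends of the core and holds its gate, rose, with a median log2 fold change of 0.59 and a range of 0.40 to 0.95. Of all tested genes 41.3% were called higher, which is the background for the count of each subgroup here and below. Psma4, whose protein takes part in closing the gate, had 45.1, 47.4 and 48.4 CPM in wild-type libraries and 86.8, 93.9 and 91.7 CPM in knockout. Every knockout library was above every wild-type library, and the rise was 1.93-fold (log2 fold change 0.95 ± 0.0474 (SE), edgeR adjusted p = 3.19e-16). Psma1 and Psma7 followed at log2 fold changes of 0.82 and 0.75, and Psma2 at 0.59. Psma5, Psma6 and Psma3 rose least, at 0.43, 0.43 and 0.40. The 7 proteins stand in equal number in each core, and their genes covered a range of 1.32-fold to 1.93-fold.

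The 4 beta ring subunits without a proteolytic site rose by a median of 0.88 on the log2 scale, and none by less than 0.73. Psmb3 was at 30.1, 28.1 and 31.9 CPM in the wild-type libraries and at 65.5, 66.0 and 68.7 CPM in the knockout ones, which was 2.22-fold more (log2 fold change 1.15 ± 0.054 (SE), edgeR adjusted p = 8.24e-17). The highest wild-type library was below the lowest knockout library by more than the whole spread within either group. Psmb4 rose 2.01-fold, Psmb1 1.69-fold and Psmb2 1.66-fold.

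The 6 ATPases of the base form a hexameric ring that unfolds substrates, and all 6 of their genes rose, over a wide range of log2 fold changes from 0.25 to 1.30 (median 0.61). Psmc2 (chromosome 5, 21785283 to 21803787, GRCm38) had 123, 127 and 131 CPM in wild-type libraries and 303, 316 and 321 CPM in knockout. It was the third of the 37 genes by size of change, at 2.47-fold (log2 fold change 1.30 ± 0.0363 (SE), edgeR adjusted p = 8.66e-22). Psmc5, Psmc4 and Psmc3 rose 1.81-fold, 1.65-fold and 1.42-fold. Psmc6 and Psmc1 rose 1.23-fold and 1.19-fold, and on the deposited TPM, a length-scaled unit, neither was called (limma-trend with a pseudocount of 1, adjusted p = 0.168 and 0.31). Psmc3 shares 8.25% of its exon bases with Slc39a13 on the other strand, whose reads cannot be told apart without strand.

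The 4 base subunits that are not ATPases had the highest median of the 7 subgroups, at 1.02 on the log2 scale, and again all 4 rose. Psmd2 (chromosome 16, 20651652 to 20663414), the scaffold on which ubiquitin shuttles dock, had 196, 205 and 197 CPM in wild-type libraries and 506, 495 and 530 CPM in knockout. Its 2.56-fold rise was the second largest of the 37 (log2 fold change 1.36 ± 0.0347 (SE), edgeR adjusted p = 1.25e-22). The other large scaffold, Psmd1, rose 2.02-fold. The ubiquitin receptors differed from each other in size of change, with Psmd4 2.03-fold higher and Adrm1, which also recruits the deubiquitinase Uchl5, 1.35-fold higher.

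Of the 8 lid genes 7 rose and 1 was not called, beside 41.3% of all tested genes called higher. Their median log2 fold change was 0.53, with a range of 0.03 to 1.06. Psmd11, whose protein bridges the lid to the core, had 135, 139 and 133 CPM in wild-type libraries and 279, 278 and 292 CPM in knockout, a 2.08-fold rise (log2 fold change 1.06 ± 0.0356 (SE), edgeR adjusted p = 5.45e-20). The deubiquitinase gene Psmd14 rose 1.86-fold. Psmd8, Psmd13, Psmd7 and Psmd3 rose between 1.38-fold and 1.49-fold, and Psmd6 1.15-fold. Psmd12 (chromosome 11, 107479484 to 107504362), which encodes a scaffold subunit of the lid, was at 136, 137 and 137 CPM in wild-type libraries and 142, 141 and 137 CPM in knockout, so the groups overlapped. Its log2 fold change was 0.03 ± 0.0363 (SE) (edgeR adjusted p = 0.395). With upper-quartile factors Psmd12 was called lower at -0.10 (edgeR adjusted p = 0.0142), and also at -0.17 on TPM with a pseudocount of 1 (limma-trend, adjusted p = 9.59e-04), and Psmd6 was not called on either scale.

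Caps other than the 19S cap can also bind the core, and they split. Psme4 (chromosome 11, 30771726 to 30880361), the gene of the nuclear activator PA200, had 245, 245 and 240 CPM in wild-type libraries and 216, 219 and 206 CPM in knockout. It was the one gene of the 37 in which all knockout libraries lay below all wild-type libraries, which 41.4% of all tested genes did, and its fall was small (log2 fold change -0.19 ± 0.0344 (SE), edgeR adjusted p = 1.66e-05) and not called in the test against a 1.2-fold change. Psme3, which encodes the PA28 gamma activator of the nucleus, rose 1.5-fold. Psmf1, the gene of the core-binding inhibitor PI31, had 33.9, 31.0 and 32.9 CPM in wild-type libraries and 53.3, 51.2 and 58.3 CPM in knockout, a 1.66-fold rise with no overlap (log2 fold change 0.73 ± 0.0577 (SE), edgeR adjusted p = 5.88e-12).

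All 5 factors that assemble the core rose, 1 of them (Psmg3) only under some settings. The largest change of the 37 genes was that of Psmg1 (chromosome 16, 95979933 to 95990960), a chaperone of the alpha ring, which had 15.8, 13.8 and 14.1 CPM in wild-type libraries and 50.1, 51.4 and 49.8 CPM in knockout. This was a 3.46-fold rise (log2 fold change 1.79 ± 0.0642 (SE), edgeR adjusted p = 2.25e-19). Psmg4 rose 2.18-fold, Psmg2 1.59-fold and Pomp, the maturation factor that is itself degraded by the finished core, 1.57-fold. Psmg3 was the least abundant of the 37 and the least certain, at 7.48, 6.0 and 6.69 CPM in wild-type libraries and 7.56, 8.61 and 8.68 CPM in knockout. The highest wild-type and the lowest knockout library were close together, and the 1.23-fold rise (edgeR adjusted p = 0.0164) was not called without wild-type replicate 2 (adjusted p = 0.104) or by DESeq2 (adjusted p = 0.0767). The Psmg3 call was lost as well under upper-quartile scaling (0.17, edgeR adjusted p = 0.166), against a 1.2-fold change (edgeR adjusted p = 0.229) or on TPM (0.09, limma-trend with a pseudocount of 1, adjusted p = 0.388), where the groups overlapped (11.0 in wild-type replicate 1 and 9.73 in knockout replicate 1).

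**Figure D2:**
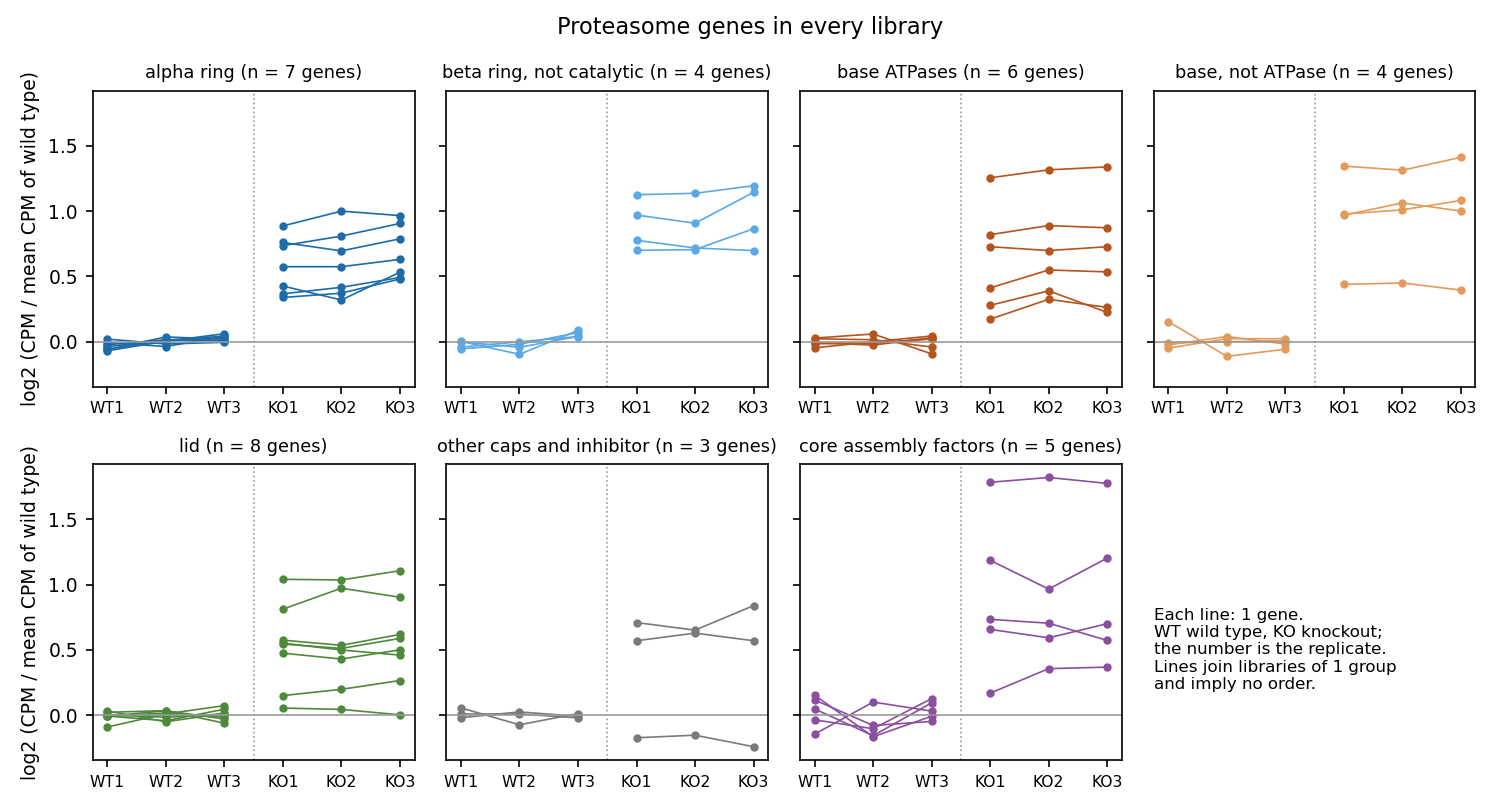
CPM of each gene in each library, as log2 of its ratio to the mean of the wild-type libraries, in 1 panel per subgroup. The wild-type points stay close to 0, and the knockout points of 35 genes lie above all their wild-type points. Psmd12 (lowest line of the lid) overlaps 0 and Psme4 (lowest line of the other caps) lies below it.

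Several of these proteins act as pairs. The ratio of 2 genes' TPM within a library does not depend on the scaling between libraries, and it was computed for 6 known pairs. In each pair the gene with the larger rise was set over the other. That all 6 ratios were higher in knockout therefore follows from the fold changes above and is no further result. Psmc2 over Psmc1, neighbours in the ATPase ring, was 0.313, 0.327 and 0.325 in wild-type libraries and 0.679, 0.640 and 0.678 in knockout, with a mean 2.07 times as high. Psmg1 over Psmg2, which form the first chaperone pair of the alpha ring, was 0.966, 0.970 and 0.834 in wild-type libraries and 1.90, 1.99 and 2.12 in knockout, 2.17 times as high. The ratio of Psmg1 was below 1 in every wild-type library and near 2 in the knockout libraries. The second chaperone pair, Psmg4 over Psmg3, was at 8.71 ± 0.975 and 15.4 ± 2.16 (SD, n = 3 each). Psmd14 over Psmd7, the heterodimer that holds the lid's deubiquitinase site, was at 0.526 ± 0.0308 and 0.690 ± 0.0527. The other ATPase neighbours differed less, with Psmc5 over Psmc4 at 1.59 ± 0.0624 and 1.76 ± 0.0596 and Psmc3 over Psmc6 at 1.36 ± 0.0973 and 1.56 ± 0.103. The groups did not overlap in any of the 6 ratios, and each gave p = 0.1 in a two-sided exact permutation test on log2 ratios (0.1 after Benjamini-Hochberg adjustment over the 6), which is the smallest p that 3 libraries against 3 allow. In CPM, 41.7% of all tested genes lay wholly above wild type in knockout and 41.4% wholly below. The share for ratios of other gene pairs was not computed.

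**Figure D3:**
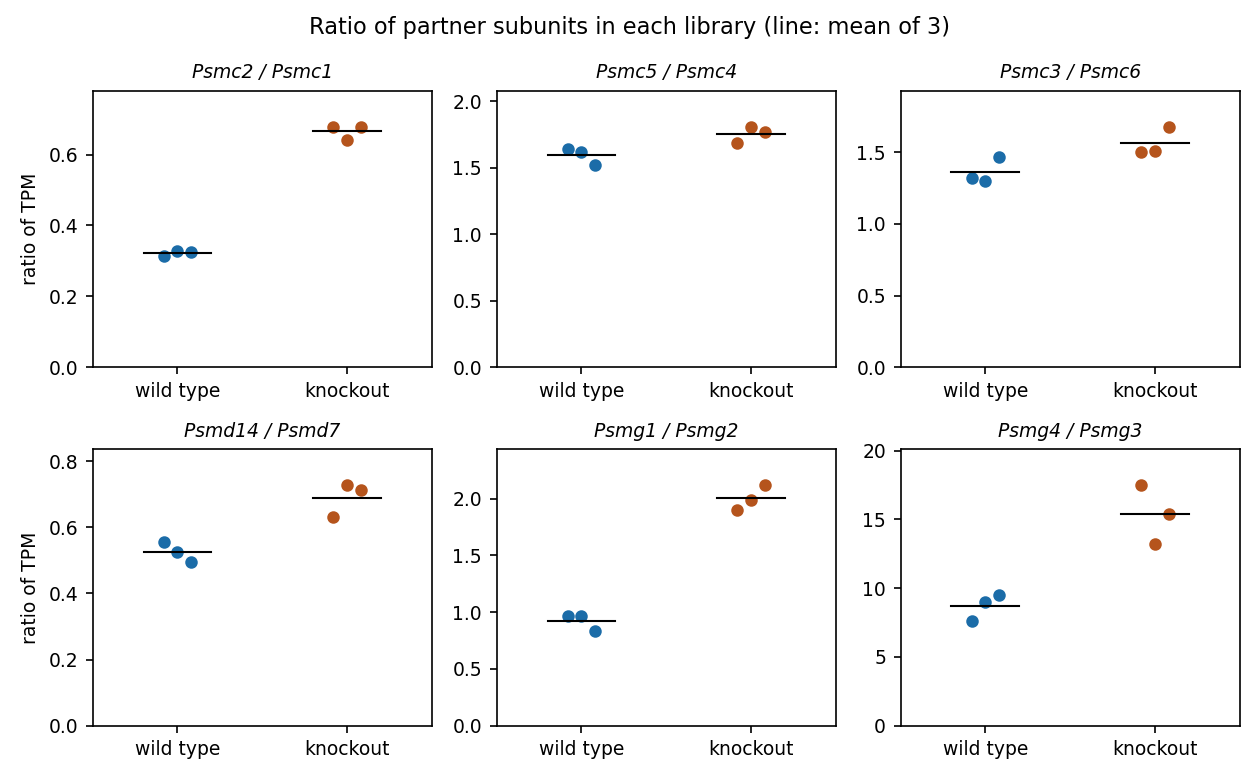
Ratio of the TPM of partner subunits in each library, with the group mean as a line and axes that start at 0. Psmc2 over Psmc1 and Psmg1 over Psmg2 have knockout means 2.07 and 2.17 times those of wild type, and Psmc5 over Psmc4 1.1 times.

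Per length, the genes of this complex differed far more from each other than between the genotypes. Summed over the 29 core, base and lid subunits, TPM were 5322, 5372 and 5399 in wild-type libraries and 7468, 7568 and 7585 in knockout, 1.41-fold more. On log2(TPM + 1) the median log2 fold change of the 37 genes was 0.46 and that of all tested genes -0.19, a difference of 0.65. The highest mean level was that of Psma6, at 533 ± 7.3 TPM in wild type and 620 ± 18.2 TPM in knockout (SD, n = 3 each), and the lowest that of Psmg3, at 9.9 ± 1.1 and 10.6 ± 0.732 TPM. Within the alpha ring alone, Psma6 stood 20.5-fold above Psma3 in wild type and 20.9-fold in knockout. Part of that gap is the length scaling. The annotated exons of all isoforms together span 1234 bases in Psma6 and 3894 in Psma3, and the wild-type means were 154 and 23.8 CPM. Where such a length exceeds that of the transcript in these cells, the TPM of the gene is too low. Of the 7 subgroups the ATPases were the most even, at 3.11-fold between the highest and lowest in wild type and 2.52-fold in knockout. Over the 29 subunits the SD of log2 TPM between genes was 1.14 in wild type and 1.19 in knockout. How reads shared with near-identical copies were counted is not stated, which can lower the level of single genes, so the order of levels is less certain than the changes.

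**Figure D4:**
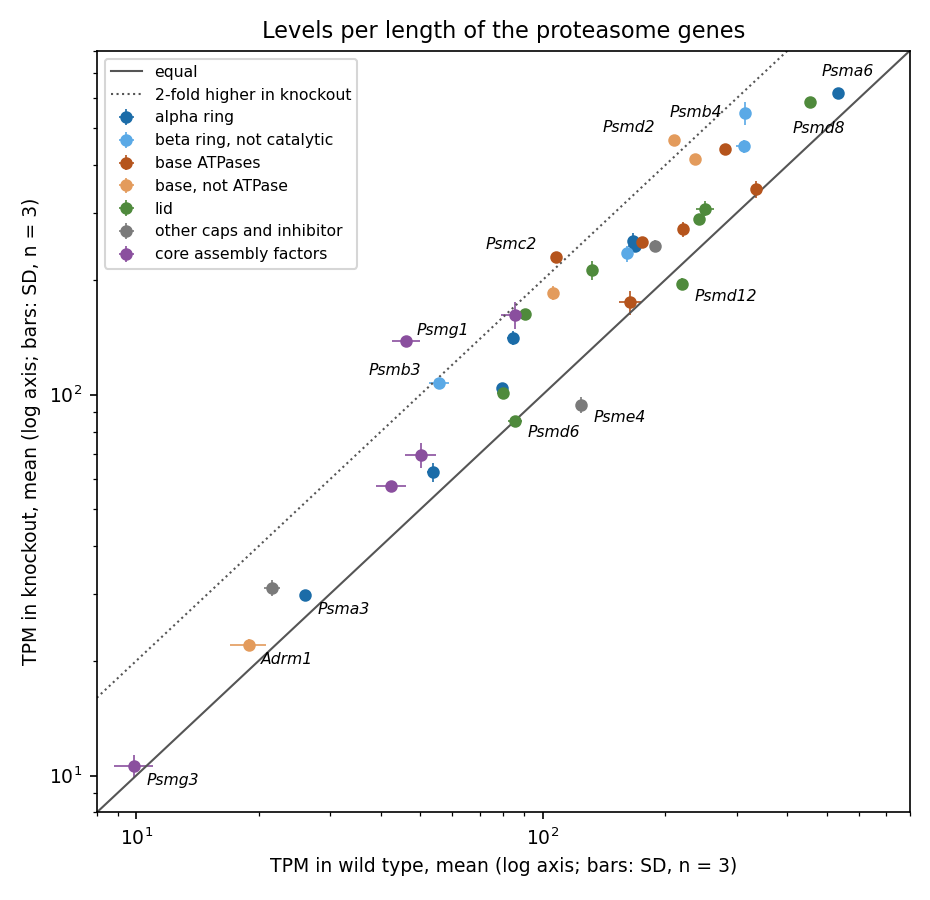
Mean TPM of each gene in knockout against wild type, on log axes, with SD bars (n = 3). Most points lie between the lines of equal level and of a 2-fold rise. Psmg1, Psmd2 and Psmc2 lie above the upper line, Psme4 and Psmd12 lie below the line of equality, and Psmd6 lies on it (85.7 and 85.5 TPM).

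The factor best known for controlling proteasome genes is NRF1, encoded by Nfe2l1, which is held at the endoplasmic reticulum and released when proteasome capacity is short. NRF1 and NRF2 bind the antioxidant response element, while the CCAAT box is bound by NF-Y and the interferon-stimulated response element by the STAT and IRF factors of the interferon response. Promoters of 31 of the 37 genes, in 33 windows from 250 bases before to 50 bases after the start, were taken from RefSeq (GRCm38.p6) and searched on both strands, together with all 32851 windows of that length. The element core TGACNNNGC was in 12.1% of the proteasome windows and 12.4% of all windows, and CCAAT in 36.4% and 37.4%, so neither was more frequent than elsewhere. The cyclic AMP response element TGACGTCA was in 0 proteasome windows and 1.79% of all. The core of the interferon-stimulated response element, GAAA and GAAA with 2 bases of any kind between them, was in 3 of the 33 windows (9.09%) and 3.44% of all. A match is a description of letters, and its use in these cells was not measured.

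The 4 genes with TGACNNNGC were Adrm1, Psmc6, Psmd12 and Psme4, with log2 fold changes of 0.43, 0.30, 0.03 and -0.19, all below the median of 0.67. The 3 with the interferon element core were Psmb3, Psmd4 and Psmg4, at 1.15, 1.02 and 1.12, all above it. Genes with CCAAT, among them Psmb3 and Psmd4, lay on both sides of the median, from 0.25 (Psmc1) to 1.30 (Psmc2). Psmc2, Psmb3, Psmd4, Psmd14, Psma1 and Psma7 were above it, and Psma2, Psme3, Psma6, Adrm1, Psma3 and Psmc1 below. Whether a motif goes with the change was not tested. The stretches below are shown because they hold TGACNNNGC in genes below the median or the interferon element core in genes above it. The stretch of Psmg4 is not shown. Each reads 5′ to 3′ on the strand of its gene, from GRCm38.p6, and capitals mark TGACNNNGC in the first 4, the interferon element core in the last 2 and CCAAT in Adrm1, Psmb3 and Psmd4, each on either strand. They lie at chr11:107479278-107479309 for Psmd12, chr14:45329577-45329625 for Psmc6, chr2:180171406-180171547 for Adrm1, chr11:30771758-30771786 for Psme4 and chr11:97703251-97703415 for Psmb3, all on the plus strand, and at chr3:95042665-95042729 on the minus strand for Psmd4.
Psmd12: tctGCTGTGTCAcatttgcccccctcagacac
Psmc6: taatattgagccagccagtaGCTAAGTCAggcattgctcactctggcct
Adrm1: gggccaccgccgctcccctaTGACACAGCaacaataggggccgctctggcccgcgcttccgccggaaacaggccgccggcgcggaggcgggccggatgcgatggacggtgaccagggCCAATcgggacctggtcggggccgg
Psme4: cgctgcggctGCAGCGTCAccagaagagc
Psmb3: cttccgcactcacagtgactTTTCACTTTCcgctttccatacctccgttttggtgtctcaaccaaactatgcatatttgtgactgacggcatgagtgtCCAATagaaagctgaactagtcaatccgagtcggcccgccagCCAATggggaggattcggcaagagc
Psmd4: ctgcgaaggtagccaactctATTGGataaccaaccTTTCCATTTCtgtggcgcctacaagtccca

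Of 11 regulators of proteasome gene transcription, 4 rose, 6 fell and 1 was not called, a split near that of all tested genes (41.3% higher and 40.9% lower), with a median log2 fold change of -0.15. Nfe2l1 itself had 559, 575 and 561 CPM in wild-type libraries and 1830, 1900 and 1860 CPM in knockout, a 3.3-fold rise (log2 fold change 1.72 ± 0.0309 (SE), edgeR adjusted p = 4.81e-26). Its small Maf partners Mafk and Mafg rose 2.66-fold and 1.54-fold. Ddi2, the protease that cuts NRF1 into its active form, went the other way, from 79.6, 78.1 and 82.8 CPM to 62.8, 65.3 and 62.9 CPM, and the rise of Ngly1, which removes its sugars, was not called (log2 fold change 0.11 ± 0.0879 (SE), edgeR adjusted p = 0.228). The related Nfe2l3 had 17.7, 17.8 and 18.1 CPM in wild-type libraries and 3.63, 3.99 and 3.40 CPM in knockout, and Nfe2l2, which encodes NRF2, fell slightly at a log2 fold change of -0.16. The NF-Y subunit genes Nfyc and Nfyb fell at -0.59 and -0.32, and Nfya rose at 0.18, which turned to -0.03 on TPM. The remaining fall was that of Maff, at -0.15, which was not called by DESeq2 (adjusted p = 0.0845).

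The subunits left out of the 37 rose as well, beside 41.3% of all tested genes called higher. The 3 constitutive catalytic subunits rose by a median of 0.88 on the log2 scale, the same as the other beta subunits, with Psmb5, which carries the chymotrypsin-like site, at 14.7, 13.2 and 14.4 CPM in wild-type libraries and 24.8, 24.7 and 29.6 CPM in knockout. Summed TPM of these 3 were 347.7 to 357.9 in wild type and 517 to 590.7 in knockout, while those of their interferon-induced counterparts Psmb8, Psmb9 and Psmb10 were 57.5 to 61.1 and 599.5 to 665.4. All 5 interferon-induced genes rose, by a median of 2.77 on the log2 scale. Psmb10 rose most, 17.6-fold, from 11.9, 10.4 and 12.0 CPM to 190, 193 and 221 CPM. The lid subunit Sem1 rose 1.37-fold, from 52.4, 56.0 and 54.9 CPM to 73.2, 71.3 and 79.1 CPM. Of 4 listed chaperones of the base, Psmd10, Psmd9 and Psmd5 were tested and rose, Psmd10 most, from 20.3, 20.7 and 19.8 CPM to 38.8, 38.3 and 40.0 CPM, and Paaf1 was not analysed here.

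All 13 proteasome-bound enzymes and shuttles rose, with a median log2 fold change of 0.65. Of all tested genes 41.3% were called higher, which is the background for each count called in this paragraph. Ubqln2, a shuttle of the ubiquilin family, was nearly silent in wild type, with 5 counts in all, and had 3377 counts over the knockout libraries, a ratio of 755 (exact 95% interval 323 to 2330, counting error only). All 5 wild-type counts were in replicate 3. Without that library wild type had 0 counts, and a floor of 3 counts over the group put the ratio at 840. That value rests on the floor and on the library left out, and the lower limit over all libraries is 323. The related Ubqln1 and Ubqln4 rose 1.56-fold and 1.61-fold. Zfand2a, a stress-inducible protein that binds the 19S cap, rose 5.1-fold, and the deubiquitinase Uchl5 2.23-fold, whereas Usp14, the other deubiquitinase of the cap, rose 1.16-fold and was level on TPM (70.8 in both groups). Usp14 and the proteasome-bound thioredoxin Txnl1 were not called on TPM, with upper-quartile factors or against a 1.2-fold change. Of 6 genes of the p97 segregase, which extracts substrates for the proteasome, 5 rose and Faf2 was not called (log2 fold change -0.01, edgeR adjusted p = 0.861) except on TPM and with upper-quartile factors, where it was called lower at -0.21 and -0.14. The cofactor Ufd1 rose most, from 37.6, 36.4 and 36.0 CPM to 87.2, 89.4 and 91.5 CPM. Of 6 genes for ubiquitin and its activating enzymes 5 rose and 1 fell. Ubb, which encodes a chain of ubiquitin units, rose 2.36-fold, from 65.6, 64.3 and 73.0 CPM to 158, 161 and 158 CPM. The activating enzyme Uba1 rose 1.65-fold, and Uba6, the alternative activating enzyme, fell from 117, 111 and 97.2 CPM to 72.7, 74.9 and 70.3 CPM (log2 fold change -0.58 ± 0.0563 (SE), edgeR adjusted p = 1.02e-08). Rps27a, which encodes ubiquitin fused to a ribosomal protein and has copies that can share its reads, rose 1.44-fold and was not called on TPM.

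**Figure D5:**
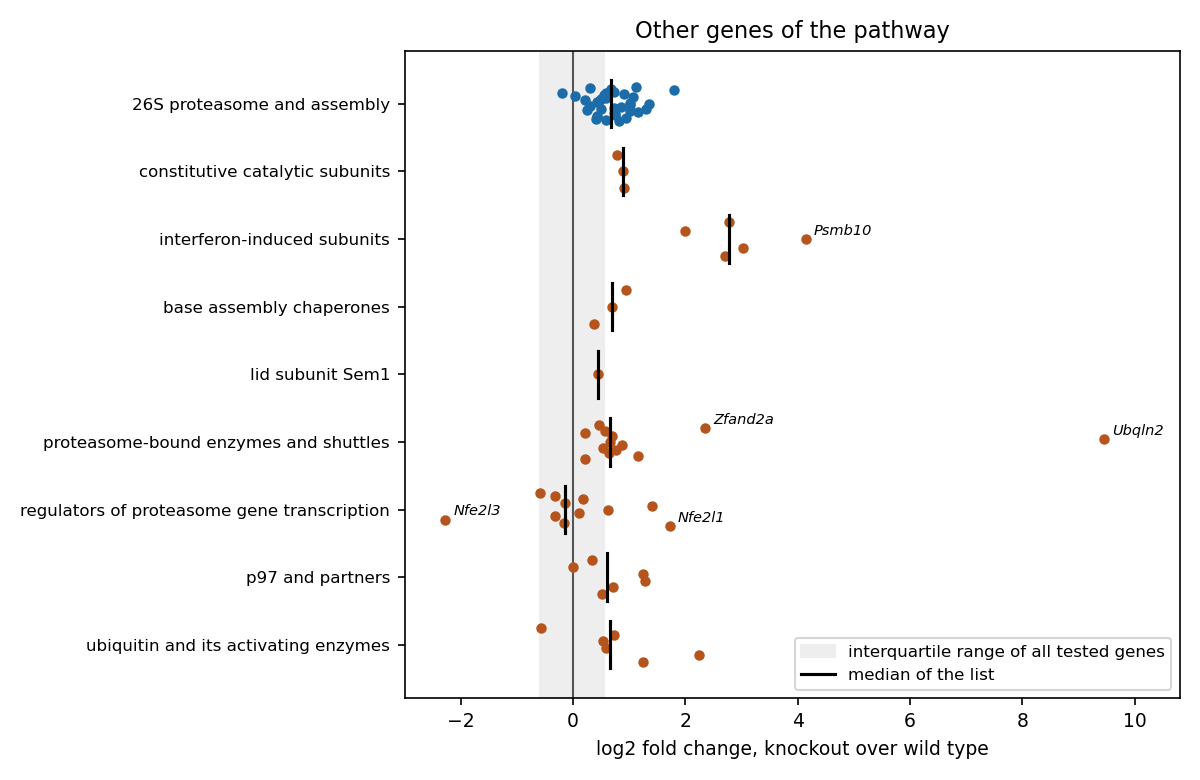
Log2 fold changes of the 37 genes (blue) and of the other genes of the pathway (orange) by list, with list medians as black lines and the interquartile range of all tested genes in grey. The interferon-induced subunits lie from 1.99 to 4.14, beyond all of the 37 genes, and the regulators spread from -2.28 (Nfe2l3) to 1.72 (Nfe2l1). The point of Ubqln2 at 9.45 is a fitted value that depends on the prior count and was 13.2 without wild-type replicate 3.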

How the data were processed

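Libraries were prepared from Trizol-extracted total RNA of 6 samples with a DNBseq kit, per the labels' protocols. STAR 2.7.8a, featureCounts 2.0.1 and the build GRCm38 are named in the submitters' processing notes, and how strand and multi-mapping reads were treated is not given in the sources used here. Whole-number read counts per gene, as the authors deposited them, went into the tests. The authors' deposited TPM, scaled by gene length, served for levels. Copies of both tables split by library held the same values.

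Symbols matched 55141 of 55487 gene identifiers, and positions are from GENCODE M21 (GRCm38). Counts were fitted with edgeR 4.0.16 in R 4.3.3 (TMM factors, filterByExpr, robust quasi-likelihood fit, two-sided test, Benjamini-Hochberg adjustment over all 13022 tested genes, threshold 0.05). The SE is the log2 fold change over the root of its F value, and CPM use TMM-adjusted library sizes. Alternatives were other factors, filters and pseudocounts, DESeq2 1.42.0, limma 3.58.1 on log2(TPM + 1), a replicate block and left-out libraries. On simulated counts for this comparison (12767 genes), the edgeR test recovered 65.3% of the 1.2-fold changes, 87.5% of the 1.5-fold and 94.0% of the 2-fold, with 13 false calls. In that simulation only 48 to 50 tested genes changed at each fold (1.2, 1.5, 2 and 3), and all others were level. In the data 82.3% of tested genes were called, so these rates need not hold there.

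The 37 genes and all other lists were chosen with earlier results of these data known. Values per library are given by rule for the called genes with the largest rise and fall in each subgroup and list, the members not called and the most and least abundant member. Other genes outside the 37 that are named were chosen after their values were seen. A few listed genes enter the counts and are not reported here individually.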

Additional observations from a re-analysis of the deposited data

How the results depend on the processing

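Of the 37 genes, 31 kept their direction and their side of the threshold under all 16 alternatives, and the others were Psmc1, Psmc6, Psmd6, Psmd12, Psme4 and Psmg3. Between 31 and 35 were called higher. Of all tested genes this share was 21.9% (no filter on low counts) to 42.3% (at least 1 CPM in 3 libraries). The median log2 fold change of the 37 was 0.54 with upper-quartile factors, 0.46 on log2(TPM + 1) and 0.47 on log2(TPM + 0.1), where that of all tested genes was -0.13, -0.19 and -0.21. Of all calls, 50.2% were higher with TMM factors, 42.8% with upper-quartile factors and 38.5% on either TPM scale. Under these 3 settings 2 of the 37 were called lower, and in the test against a 1.2-fold change 0. Psmd12 turned to -0.10 with upper-quartile factors and -0.17 on both TPM scales, and Psmd6 to -0.0015 on both. Nfya turned to -0.03 on both TPM scales, and Ngly1 to -0.02 with upper-quartile factors and to -0.08 and -0.09 on TPM. Faf2, near 0, turned to 0.01 without a filter on low counts, and leaving out each library gave it -0.04 to 0.02. The cause was not tested.

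Leaving out each library gave the 37 genes medians of 0.65 to 0.72, with 34 to 35 called higher and 1 lower. Of all tested genes 39.7% to 40.5% were called higher in these fits, and 41.3% in each of the next 2. Same-numbered libraries did not deviate together (correlations -0.00742, 0.0416 and 0.0132), and with the replicate number as a block 35 were called higher and 1 lower. Without the genes high in knockout replicate 3, an alternative chosen after seeing the data, 35 were higher and 1 lower. Psmg3 was counted with 107 to 138 reads per library.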

Other observations

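The start sites of 8 of the 37 genes lie within 1000 bases of that of a protein-coding gene on the other strand, and 7 of these neighbours were tested. Of the 7, 3 rose, 2 fell and 2 were not called (edgeR quasi-likelihood test), with a median log2 fold change of 0.01. Of all tested genes 41.3% were called higher and 40.9% lower. Dnajc2, which encodes a ribosome-associated chaperone and starts 32 bases from Psmc2, rose at 1.2 where Psmc2 rose at 1.30. Mrpl32, a mitochondrial ribosomal protein gene beside Psma2, rose at 0.92, and Sirt3, the mitochondrial deacetylase gene whose exons overlap those of Psmd13, rose at 0.80. Tbp, which encodes the TATA-binding protein and starts 137 bases from Psmb1, fell at -0.22 where Psmb1 rose at 0.75. Cep76, a centrosome gene beside Psmg2, fell at -0.51. Ftsj3 beside Psmc5 and Ss18l1 beside Psma7 were at 0.01 and -0.0047 and were not called.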
